A study of Mus musculus with 10 samples.

Results

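Transcripts of 9 chemokines were followed in single cells of embryonic mouse back skin. They were Cxcl1, Cxcl2, Cxcl5, Cxcl10, Cxcl12, Cxcl14, Ccl2, Ccl7 and Ccl20, taken by symbol from 27040 genes that were listed in each of the 10 libraries. The genes were chosen by their UMI levels in these cells, per library, stage and group, so their levels in the epithelial, fibroblast and macrophage classes, and the differences between groups there, are a description without a test. A value is the number of molecules of a gene, counted by unique molecular identifiers (UMIs), per 1000000 UMIs of a cell class in 1 library (CPM).

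Chemokines are small secreted proteins that guide migrating cells through receptors coupled to G proteins. Cxcl1, Cxcl2 and Cxcl5 act on Cxcr2 and draw neutrophils, Cxcl10 acts on Cxcr3 and draws activated T cells, Ccl2 and Ccl7 act on Ccr2 and draw monocytes, and Ccl20 acts on Ccr6 and draws dendritic cell precursors and lymphocytes. Cxcl12, which binds Cxcr4 and the scavenger Ackr3, and Cxcl14 are made in many tissues at rest, whereas the others are best known as genes that inflammatory signals switch on within hours.

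Skin came from embryos bred to lack Mof (gene symbol Kat8), the acetyltransferase of lysine 16 on histone H4, or QPC (gene symbol Uqcrq), a subunit of respiratory complex III, in cells with K14Cre. The groups were control (replicates 2 and 3) and MOF cKO (MOFfl/fl/K14Cre, replicates 5 and 6) at E15.5, control and MOF cKO at E16.5 (replicates 1 and 2 of each), and 1 control and 1 QPC cKO (QPCfl/fl/K14Cre) library at E17.5. The promoter of the Cre is active in epithelium, so fibroblasts, macrophages and vessel cells of the cKO embryos were not its target. Per the methods, mice were on a mixed C57Bl/6J and CD-1 background. The study describes MOF controls as wild-type or heterozygous littermates. It describes E15.5 MOF cKO replicate 6 as mosaic, from how its cells clustered and from staining of the histone mark, and replicate 5 as uniform. Stage, library chemistry (v3.1, v2 and v3 in order of stage) and gene list changed together, so levels are compared within a stage and differences between stages cannot be told apart from these. No source says that samples of a group came from separate litters, so the tests given measure the spread between these samples.

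Of the 82691 barcodes in the files, 55482 cells were kept, 716 to 10653 per library. Total UMIs ranged from 13609345 to 203392303 per library, and the E16.5 libraries were the smallest. Between 0 and 36 barcodes were shared by any pair of libraries, at most 0.354% of the smaller one. Epithelial cells (at least 10 UMIs of Krt5 and Krt14) numbered 1061 to 2896 per E15.5 library, 266 and 512 in the E16.5 controls, and 30 and 39 in E16.5 MOF cKO. Fibroblasts (at least 30 UMIs of Col1a1 and Col3a1, under 10 of the keratins) numbered 518 to 7389 and macrophages (at least 2 of C1qa, C1qb and Csf1r detected) 33 to 260 per library. The keratin gate also took in cells with more collagen than keratin UMIs, 1363 of 3069 (44.4%) in the E17.5 control, 75 of 266 (28.2%) in E16.5 control replicate 1, 110 of 1162 (9.47%) in QPC cKO and 0 of both E16.5 MOF cKO libraries. Epithelial values are therefore given for the gate and for its keratin-led cells, those with at least as many keratin as collagen UMIs, a class added after the data were seen. The keratin limit left the collagen-led cells out of the fibroblast class. Fibroblasts held a median of 7 keratin UMIs per cell in the E17.5 control and 4 in QPC cKO. The medians were 5 and 2 in the E16.5 controls and 1 in each E16.5 MOF cKO library. In keratin-led cells Uqcrq stood at 131 CPM in the E17.5 control and 37.0 in QPC cKO, while in fibroblasts, which the Cre does not target, it was at 69.4 and 122. Kat8 in keratin-led cells stood at 13.1 and 14.2 in E15.5 control against 13.2 and 10.3 in MOF cKO, and at 20.2 and 15 in E16.5 control against 8.66 and 3.75 (5 and 3 UMIs) in MOF cKO. In fibroblasts Kat8 was lower in both MOF cKO libraries than in both controls, at 9.18 and 9.62 against 6.83 and 5.98 at E15.5 and 9.6 and 8.23 against 2.81 and 5.39 at E16.5. The reads are 3' tags that can lie outside the deleted part of Kat8, which the labels do not give, so these values check little.

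Cxcl1 (chr5:90891241-90893115), Cxcl2 (chr5:90903871-90905938) and Cxcl5 (chr5:90759360-90761624) lie on the plus strand of GRCm38 (GENCODE annotation), with 10755 bases between Cxcl1 and Cxcl2 and 129616 between Cxcl5 and Cxcl1, and Cxcl10 (chr5:92346638-92348889, minus strand) lies farther along the same chromosome. Ccl2 (chr11:82035571-82037453) and Ccl7 (chr11:82045712-82047525) are 8258 bases apart on the plus strand. Cxcl12 is at chr6:117168535-117181367 (plus), Cxcl14 at chr13:56288643-56296551 (minus) and Ccl20 at chr1:83116766-83119167 (plus). The promoter table of RefSeq on GRCm38.p6 held 6 of the 9 genes. A κB-type motif (GGGNNNNNCC, the letters bound by NF-κB factors), an interferon-response type motif (GAAANNGAAA) and an AP-1 type motif (TGANTCA) were searched on both strands in the 250 bases before the RefSeq start. Of 32851 promoters, 45.8% held the first, 2.98% the second and 6.75% the third. The 4 stretches that end 41 bases before the start are printed, 5′ to 3′ on the strand of the gene, because these chemokines, described as switched on by inflammatory signals, share the first motif there. Capitals mark the matches.
Cxcl1, chr5:90891145-90891204, plus strand: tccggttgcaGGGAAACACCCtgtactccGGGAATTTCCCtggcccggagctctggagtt
Cxcl2, chr5:90903789-90903858, plus strand: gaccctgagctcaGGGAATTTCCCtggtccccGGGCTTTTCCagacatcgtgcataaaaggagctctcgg
Cxcl10, chr5:92348930-92349109, minus strand: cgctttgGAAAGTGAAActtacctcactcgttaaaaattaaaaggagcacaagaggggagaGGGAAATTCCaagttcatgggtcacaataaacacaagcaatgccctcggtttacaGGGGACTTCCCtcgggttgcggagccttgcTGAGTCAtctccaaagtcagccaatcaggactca
Ccl20, chr1:83116656-83116725, plus strand: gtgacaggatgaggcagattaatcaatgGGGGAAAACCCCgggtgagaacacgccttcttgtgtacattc

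The letters GGGAATTTCC, found in 28 of the 32851 promoters (0.0852%), began 71 bases before the start of Cxcl1 and 97 bases before that of Cxcl2. Cxcl10 held the interferon-response type letters 213 bases and the AP-1 type letters 74 bases before its start, beside matches to the κB-type motif, and Ccl20 held overlapping κB-type matches from 82 bases before the start. Cxcl12 held 1 κB-type match outside the stretches shown and Cxcl14 none, although Cxcl14 held the interferon-response type letters 172 bases before the start. The motif of 10 letters with 5 free positions is common, so a match is a description of the letters and no more.

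The class with the highest level differed between the chemokines in E15.5 control skin. Cxcl14 was highest in epithelial cells, Cxcl2, Ccl2 and Ccl7 in macrophages, Cxcl1 in mural cells, and Cxcl12 in fibroblasts, while Cxcl10 was highest in epithelial cells and Ccl20 was found almost only there. Endothelial cells (at least 2 of Pecam1, Cdh5 and Kdr) and mural cells (at least 2 of Rgs5, Kcnj8 and Abcc9) were taken from the cells in none of the other gates.

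Cxcl14 stood at 992 and 849 CPM in the keratin-led epithelial cells of the 2 controls, 257 and 293 in fibroblasts, 70.2 and 44.3 in macrophages, 7.6 and 5.02 in mural and 5.67 and 5.52 in endothelial cells. The order of the classes was the same in both controls down to the macrophages, and mural and endothelial cells overlapped. The macrophage gate also held cells that met another gate. Summed over 4 epithelial marker genes, its cells held 159 and 85.6 CPM, and 22.5 and 22.4 without those cells. For 4 fibroblast marker genes the sums were 290 and 484, and 27.5 and 31.7 without them. The part of these cells in the macrophage Cxcl14 level was not tested. With every cell thinned to 5000 UMIs, 91.3 and 85.6% of keratin-led cells held a Cxcl14 UMI against 4.55 and 4.12% of endothelial cells, with medians of 15868 and 18598 and 15074 and 16900.5 UMIs per cell before thinning. These medians are given in the order keratin-led, then endothelial.

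Cxcl12 stood at 79.4 and 83.4 in fibroblasts, 28.3 and 39.4 in mural cells, 26.3 and 42.2 in endothelial cells, 6.95 and 7.46 in macrophages and 3.36 and 2.27 in keratin-led cells. Mural and endothelial cells overlapped and the other steps did not. Macrophages that met no other gate held 2.29 and 1.87, which overlapped with the keratin-led values.

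The Cxcr2 ligand Cxcl1 stood at 674 and 528 in mural cells, 142 and 171 in fibroblasts, 99 and 111 in keratin-led cells, 51.6 and 59.7 in macrophages and 46.4 and 33.1 in endothelial cells, and no neighbouring classes overlapped. Its neighbour Cxcl2 stood instead at 1876 and 1673 in macrophages against 25.2 and 24.7 in fibroblasts, 18.4 and 22.2 in keratin-led, 22.8 and 8.6 in mural and 2.06 and 4.02 in endothelial cells. Macrophages were far apart from the rest for Cxcl2, and not for Cxcl1. The other Cxcr2 ligand, Cxcl5, stood at 3.22 and 4.88 in fibroblasts, 0.0908 and 0.272 in keratin-led cells and 0.732 and 0 in macrophages.

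Ccl2 stood at 1031 and 971 in macrophages, 144 and 142 in mural cells, 22 and 27.2 in fibroblasts, 4.13 and 1.51 in endothelial and 2.91 and 1.054 in keratin-led cells. Ccl7 stood at 287 and 282 in macrophages, 4.54 and 4.06 in fibroblasts, 0.691 and 6.45 in mural and 0.591 and 0.218 in keratin-led cells, and at 0 in endothelial cells. Both monocyte ligands were highest in macrophages, of which 72.8 and 71.8% held a Ccl2 UMI at 5000 UMIs per cell against 1.82 and 0% of endothelial cells. Cxcl10 stood at 210.4 and 196 in keratin-led cells and 58.5 and 31.8 in macrophages, and it was at 4.84 and 17.2 in mural, 12.4 and 9.04 in endothelial and 3.05 and 6.05 in fibroblast cells. Mural cells overlapped with both of these, which did not overlap with each other. Ccl20 stood at 2.77 and 2.42 in keratin-led cells, and 3 UMIs of it were counted in the 9236 fibroblasts and 0 in the 313 macrophages, where 3 counts would be 1.1 and 1.49 CPM.

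**Figure D1:**
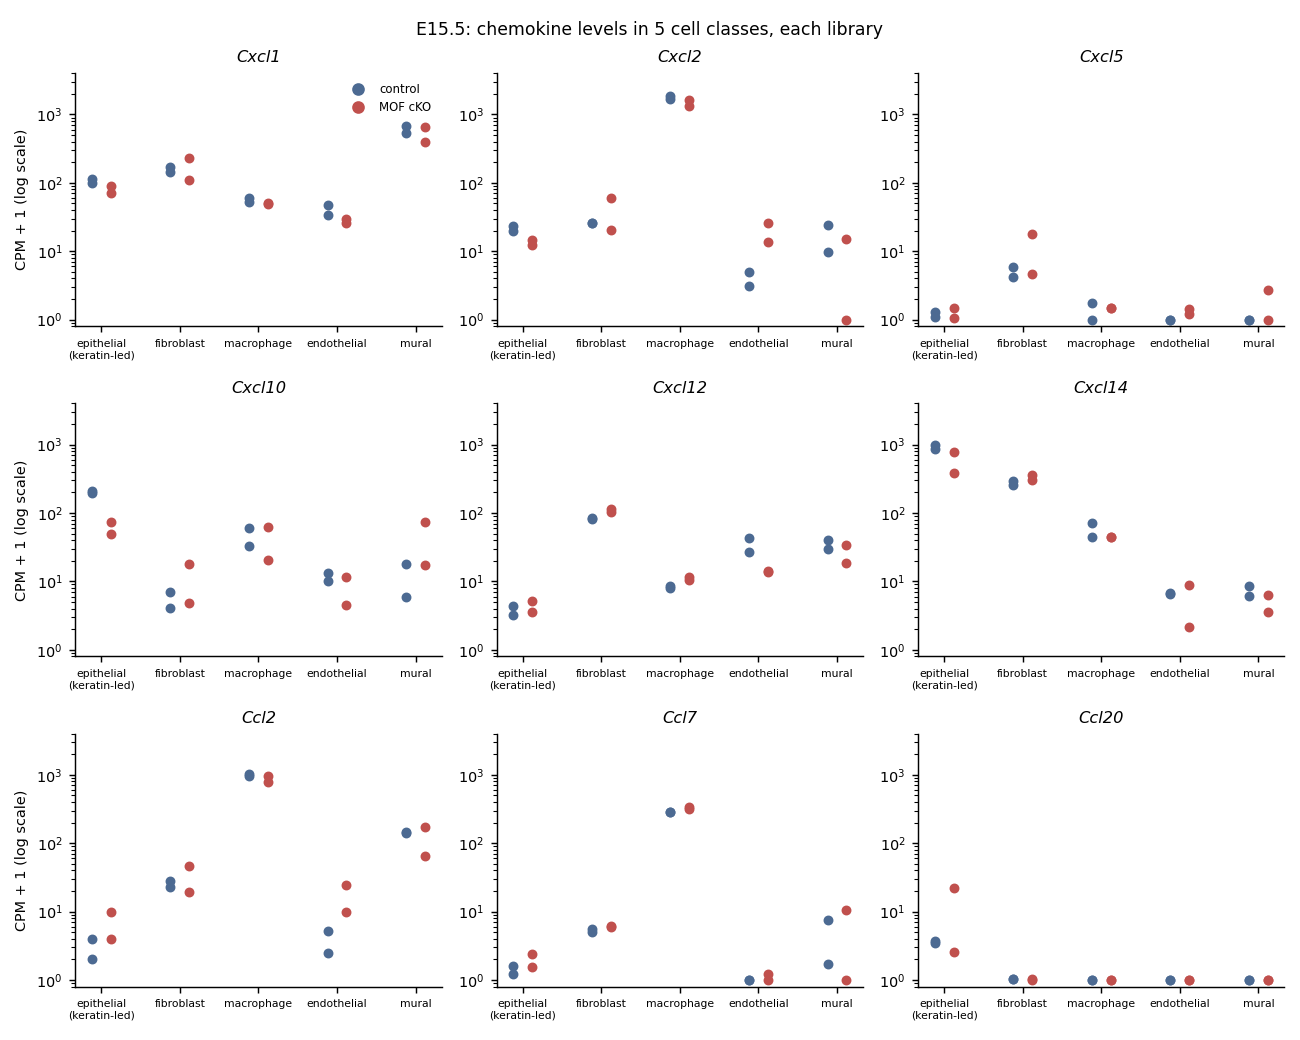
CPM plus 1 on a log axis for the 9 chemokines in 5 cell classes at E15.5, 1 point per library, control in blue and MOF cKO in red. Cxcl14 is highest in keratin-led epithelial cells (992 and 849 in control), Cxcl2 in macrophages (1876 and 1673) and Cxcl1 in mural cells (674 and 528).

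In fibroblasts, 8 of the 9 chemokines were higher in both MOF cKO libraries than in both controls at E16.5, and Cxcl14 was the exception. At E15.5 the count was 3 of 9, and only 1 of the 2 MOF cKO libraries had high Cxcl1, Cxcl2, Cxcl5, Cxcl10 and Ccl2. Of all genes tested in fibroblasts, 18.1% lay above both controls in this way at E16.5 and 35.8% below, and 26.3% above and 20.4% below at E15.5. Since the genes were chosen with these levels known, nothing is read from the counts.

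Among the Cxcr2 ligands at E16.5, Cxcl1 stood at 268 and 88.5 CPM in the 2 control libraries, against 956 and 588 in those of MOF cKO. Cxcl2 stood at 75.8 and 17.46 against 505 and 291, and Cxcl5 at 7.65 and 2.19 against 206 and 84.2. Control replicate 1 was the higher control and MOF cKO replicate 1 the higher cKO library for all 3, and the groups did not overlap. The means went from 178 ± 127 to 772 ± 260.0 (SD, n = 2 each) for Cxcl1, from 46.6 ± 41.3 to 398 ± 151 (SD, n = 2 each) for Cxcl2 and from 4.92 ± 3.86 to 145 ± 85.9 (SD, n = 2 each) for Cxcl5, which is 4.33-fold, 8.54-fold and 29.5-fold. The log2 ratio of CPM plus 1 was 2.11 for Cxcl1 and, with 1 library left out, ran from 1.52 without control replicate 2 to 3.11 without control replicate 1. It was 3.07 for Cxcl2 and, with 1 library left out, ran from 2.38 without control replicate 2 to 4.44 without control replicate 1. It was 4.62 for Cxcl5 and, with 1 library left out, ran from 3.85 without MOF cKO replicate 1 to 5.52 without control replicate 1, so the sizes depended on single libraries while the direction held. At 5000 UMIs per cell the share of fibroblasts with a Cxcl1 UMI was 24 and 12.1% in control and 51.4 and 46.3% in MOF cKO.

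Cxcl10, the Cxcr3 ligand, stood at 5.15 and 2.06 in the E16.5 controls and 303 and 83.9 in MOF cKO, with means of 3.6 ± 2.18 and 194 ± 155 (SD, n = 2 each). Ccl2 stood at 98.9 and 18.3 against 589 and 230.3, and Ccl7 at 3.89 and 5.84 against 136 and 60.2. The 2 MOF cKO libraries differed from each other by over 2-fold in these genes, and each lay above both controls. The mean ratios were 53.8-fold for Cxcl10, 6.99-fold for Ccl2 and 20.1-fold for Ccl7. These sizes depended on single libraries. The log2 ratio of CPM plus 1 was 5.40 for Cxcl10 and, with 1 library left out, ran from 4.20 without MOF cKO replicate 1 to 6.05 without MOF cKO replicate 2. It was 2.78 for Ccl2 and, with 1 library left out, ran from 1.96 without MOF cKO replicate 1 to 4.41 without control replicate 1. It was 4.07 for Ccl7 and, with 1 library left out, ran from 3.38 without MOF cKO replicate 1 to 4.54 without MOF cKO replicate 2. Each ratio kept its direction in these runs, and its size moved by more than 1.5 times. The share of fibroblasts with a Cxcl10 UMI at 5000 UMIs per cell was 1.61 and 0.0805% in control and 19.7 and 10.8% in MOF cKO, and it was 0 of 7 and 0 of 44 endothelial cells in control and 4 of 16 and 1 of 14 in MOF cKO. The shares of the 2 classes overlapped in MOF cKO, where the median UMIs per endothelial cell were 17712 and 20450.0 against 12467 and 11185 in fibroblasts.

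Of the chemokines of resting tissue, Cxcl12 stood at 154 and 108 in control and 286 and 255 in MOF cKO, 2.06-fold on average, with no overlap. Cxcl14 stood at 459.7 and 423 against 396 and 471 and overlapped, with a log2 ratio of -0.02 on the scale of CPM plus 1. Ccl20 was 1 UMI in the 2090 control fibroblasts and 9 UMIs in 1571 of MOF cKO. The median log2 ratio of the 9 genes was 2.78, and ran from 1.96 without MOF cKO replicate 1 to 3.85 without control replicate 1. It was -0.13 over the 11078 genes with at least 100 UMIs, a limit that Ccl20 did not meet. The 9 were chosen with these levels known, so nothing is read from this contrast.

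Other measures moved with these values at E16.5. The summed level of 10 dissociation-response genes (Fos, Jun, Hspa1a and others, known to respond to tissue handling) was 5854 and 4778 CPM in control fibroblasts and 8258 and 8253 in MOF cKO. The monocyte list (1 to 3 of 3 genes above 0 per library) summed to 8.21 and 10.2 against 58.6 and 64.6, the neutrophil list (4 to 7 of 7 genes) to 1.95 and 1.66 against 32.1 and 11.4, and the macrophage list (4 of 4 genes) to 9.74 and 18.3 against 38.5 and 107. The mural list (3 of 3 genes) summed to 68.4 and 63.6 against 110.4 and 94.5 and the endothelial list (3 of 3 genes) to 2.36 and 4.25 against 10.5 and 9.1. Their part in the higher chemokine levels was not tested. With gates lowered to 15 collagen and 5 keratin UMIs the log2 ratios at E16.5 were 3.13 for Cxcl2, 5.21 for Cxcl10 and 3.09 for Ccl2, against 3.07, 5.40 and 2.78 with the gates as used.

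At E15.5, Cxcl1 stood at 142 and 171 in control fibroblasts and at 232 and 108 in MOF cKO replicates 5 and 6. Cxcl2 stood at 25.2 and 24.7 against 59.3 and 19.3, and Ccl2 at 22 and 27.2 against 45.1 and 18.4. Replicate 5 was above both controls and the mosaic replicate 6 below both in each of these 3 genes. The neutrophil list in these fibroblasts (4 to 7 of 7 genes above 0 per library) summed to 0.71 and 0.435 in control and 21.9 and 1.56 in replicates 5 and 6, so it was high in replicate 5 as well, and its part was not tested. Cxcl5 (3.22 and 4.88 against 16.8 and 3.68) and Cxcl10 (3.05 and 6.05 against 16.8 and 3.85) also had their high value in replicate 5 alone.

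Cxcl12 and Cxcl14 differed less and in both libraries. Cxcl12 stood at 79.4 and 83.4 in control and 113 and 104 in MOF cKO at E15.5, means of 81.4 ± 2.83 and 108 ± 6.16 (SD, n = 2 each), and Cxcl14 at 257 and 293 against 353 and 305. Ccl7 was the third gene above both controls, at 4.54 and 4.06 against 5.19 and 5.04. The groups did not overlap in these genes, and their means differed by at most 1.33-fold. For Cxcl14 the gap between the groups was smaller than the gap between the libraries within either group. In these fibroblasts the fibroblast list summed to 4452 and 4536 in control and 4916 and 4926 in MOF cKO. The endothelial list summed to 5.25 and 5.41 against 9.27 and 8.03 and the monocyte list to 7.07 and 5.82 against 9.47 and 10.4. The epithelial list was lower, at 19.3 and 28.1 against 12.6 and 14.5, and the part of these lists was not tested.

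**Figure D2:**
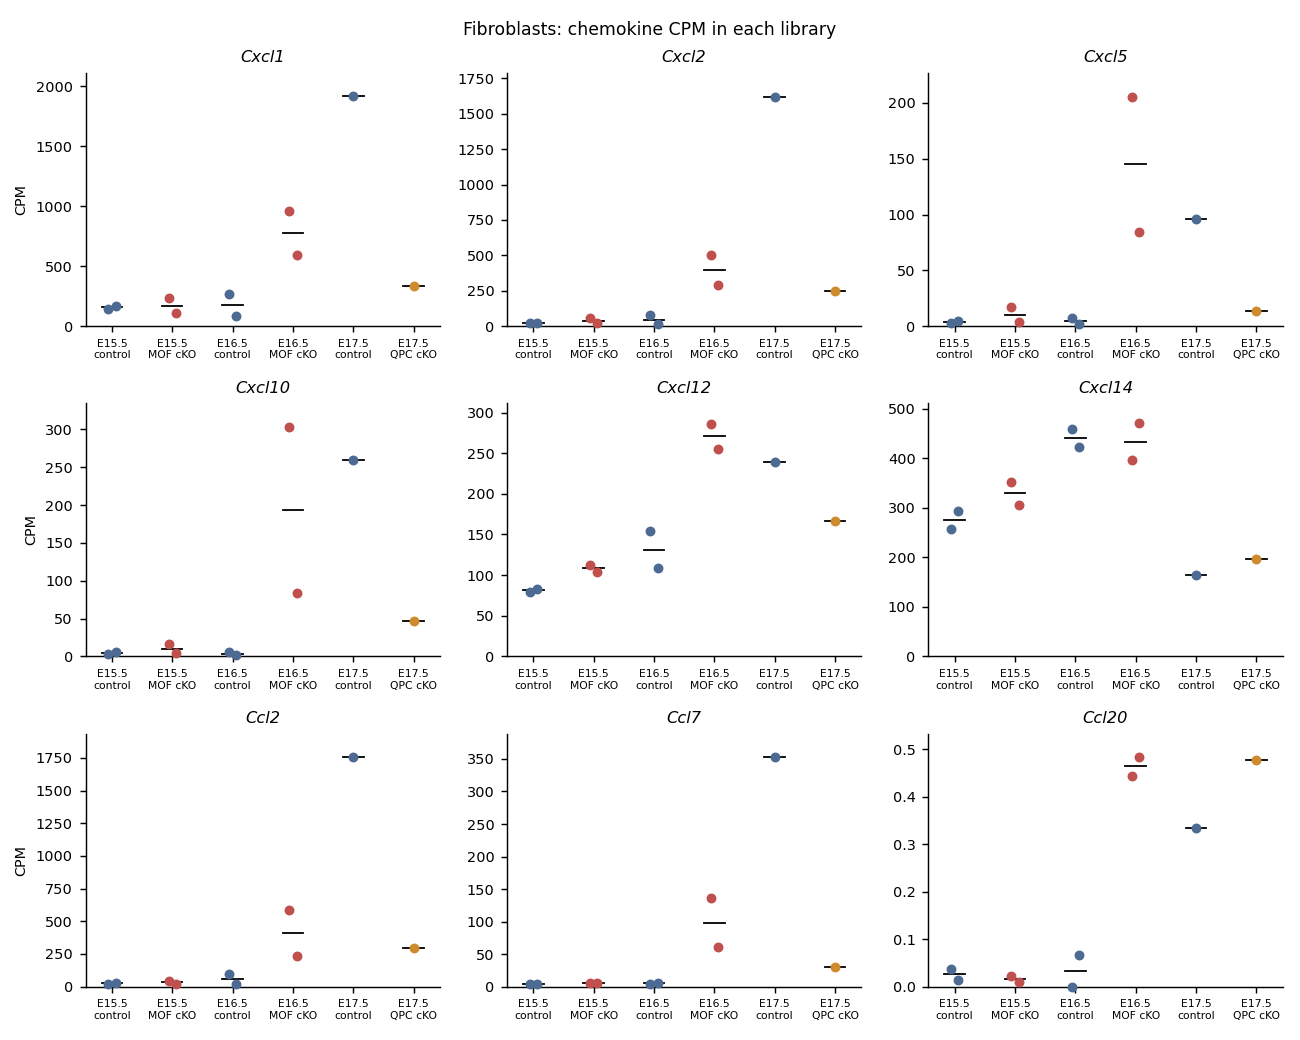
CPM in fibroblasts for the 9 chemokines, 1 point per library and a bar at the group mean, by stage and group. At E16.5 both MOF cKO points lie above both controls in every panel but that of Cxcl14, and at E17.5 the control lies above the QPC cKO library for Cxcl1, Cxcl2, Cxcl5, Cxcl10, Ccl2 and Ccl7.

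In epithelial cells, where K14Cre acts, Cxcl14 was lower in both MOF cKO libraries than in both controls at E15.5 and at E16.5. Cxcl10, Cxcl1 and Cxcl2 were lower at E15.5, and Ccl20 was higher at E16.5. In the keratin gate at E15.5, 4 of the 9 chemokines lay below both controls and 3 above, against 31.6% and 19.1% of all genes. In keratin-led cells the counts were 4 and 1, against 33.6% and 15.9%.

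Cxcl14 stood at 981 and 837 CPM in the gate of the E15.5 controls and 369.6 and 766 in MOF cKO replicates 5 and 6, and at 992 and 849 against 381 and 785 in keratin-led cells. The mosaic replicate 6 was the nearer to the controls. At E16.5 it stood at 1118 and 1514 against 129.8 and 337 in the gate, and at 1463 and 1594 against the same MOF cKO values in keratin-led cells, means of 1528 ± 92.7 and 234 ± 147 (SD, n = 2 each). The level in control was 6.54-fold that in MOF cKO, from 15128 UMIs in 683 control cells and 345 UMIs in 69 MOF cKO cells. Suprabasal cells (at least 10 UMIs of Krt1 and Krt10), in which Cxcl14 is lower, were 27 of 266 and 48 of 512 cells of the gate in control and 9 of 30 and 17 of 39 in MOF cKO. In the remaining, basal cells Cxcl14 stood at 1253 and 1626 in control and 202 and 575 in MOF cKO at E16.5, and at 1039.6 and 938 against 433 and 849 at E15.5, again with no overlap. This class is all other cells of the gate, so it can hold hair follicle keratinocytes and collagen-led cells. The study describes a hair follicle cluster in E16.5 control and fewer hair follicles in MOF cKO. The part of this make-up was not tested. In E16.5 keratin-led cells the fibroblast list (4 of 4 genes above 0 per library) summed to 914 and 963 in control and 282 and 342 in MOF cKO and the epithelial list (4 of 4 genes) to 3549 and 2701 and 9961 and 6532, and their part was not tested. The median log2 ratio was -0.66 over the 7705 genes with at least 100 UMIs in keratin-led cells, against -2.70 for Cxcl14. The share of keratin-led cells with a Cxcl14 UMI at 5000 UMIs per cell was 87.7 and 93.8% and 25 and 44.4%.

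Cxcl10 stood at 209 and 193 in the gate of the E15.5 controls against 44 and 70.3 in MOF cKO, and the log2 ratio was -1.80, -1.74 in keratin-led cells. The 2 controls were close to each other and the groups did not overlap. With gates lowered to 5 keratin UMIs the log2 ratio was -1.77, and it was -0.66 for Cxcl14 against -0.68 with the gate as used. Cxcl1 (99.99 and 115 against 93.8 and 69.2) and Cxcl2 (18.7 and 22.8 against 16.6 and 12.2) were also below, by less, and they overlapped with the controls once the sums were scaled by TMM. The dissociation-response list summed to 12907 and 12254 in control and 5664 and 8631 in MOF cKO at E15.5, so it moved the same way, and its part in the lower Cxcl1, Cxcl2 and Cxcl10 was not tested.

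Ccl20, the Ccr6 ligand, stood at 2.77 and 2.42 in keratin-led cells of the E15.5 controls and 20.9 and 1.52 in MOF cKO, high in replicate 5 and below both controls in the mosaic replicate 6. The neutrophil list in these cells (4 of 7 genes above 0 per library), which includes S100a8 and S100a9, summed to 8.61 and 8.65 in control and 68.5 and 9.51 in replicates 5 and 6, and its part was not tested. At E16.5 Ccl20 stood at 0 and 0.561 against 43.3 and 12.5, which is 4 UMIs in 683 control cells and 35 UMIs in 69 MOF cKO cells. The groups did not overlap at E16.5. At 5000 UMIs per cell 3 of 28 and 1 of 36 MOF cKO cells held a Ccl20 UMI, a share that rests on few cells, against 0 and 0.293% of MOF cKO fibroblasts, which should lack it, with medians of 16299 and 19663 and 12467 and 11185 UMIs per cell.

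At E16.5 Cxcl1, Cxcl2 and Cxcl10 overlapped with the controls in the gate and lay above both controls in keratin-led cells. Cxcl5, Cxcl12, Ccl2 and Ccl7 overlapped in both. TMM scaling of the gate put Cxcl2, Cxcl10 and Ccl7 above both controls. Cxcl1 stood at 155 and 21.8 in the gate and at 36.1 and 21.7 in the keratin-led cells of the controls, and at 116 and 45 in MOF cKO, whose gate held no collagen-led cells. The collagen-led cells of control replicate 1 held 395. In the gate 1 chemokine was above both controls and 1 below, against 12.8% and 56.4% of all genes, and in keratin-led cells 4 were above (Cxcl1, Cxcl2, Cxcl10 and Ccl20) and 1 below, against 13.6% and 55.8%. The neutrophil list, which includes the keratinocyte genes S100a8 and S100a9 (3 to 6 of 7 genes above 0 per library), summed to 3.37 and 6.2 in the gate of the controls and 3916 and 1868 in MOF cKO, and the macrophage list (3 to 4 of 4 genes) to 121 and 15.6 against 38.1 and 192. Their part in these values was not tested. With 30 and 39 MOF cKO cells the counts behind the smaller genes were few, 4 UMIs for Cxcl5 and 11 for Cxcl12.

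**Figure D3:**
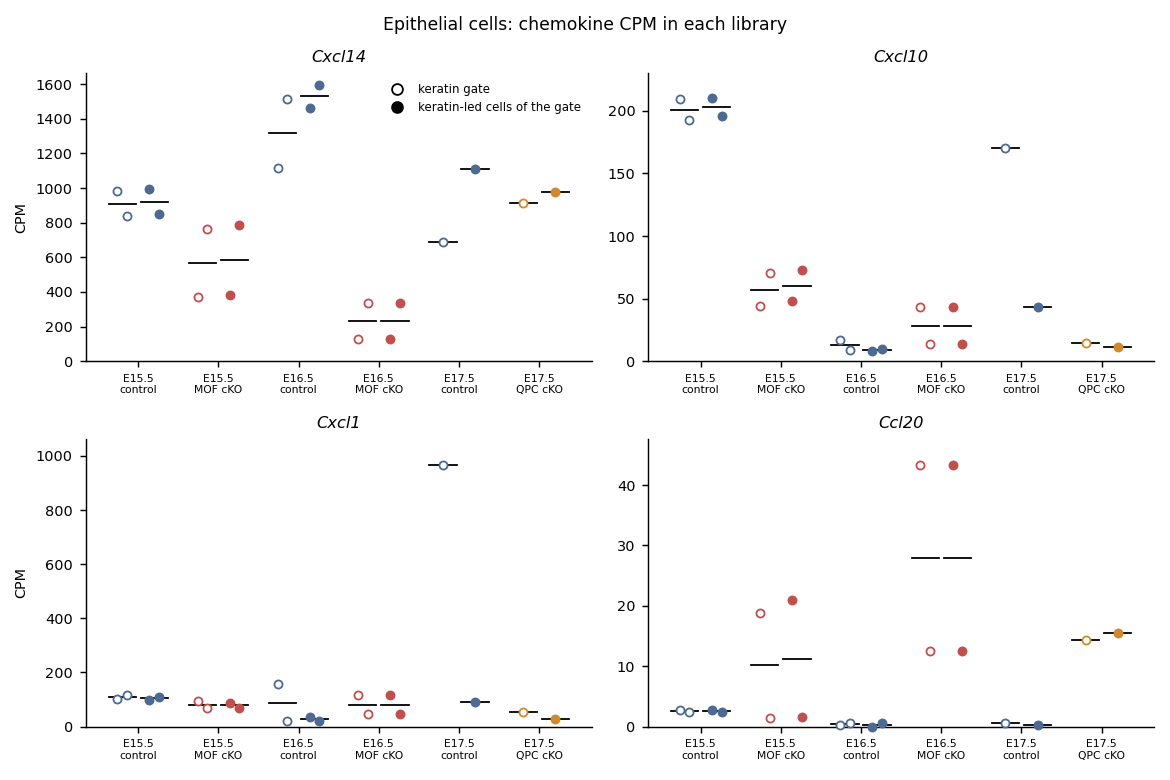
CPM of Cxcl14, Cxcl10, Cxcl1 and Ccl20 in epithelial cells, 1 point per library with a bar at the group mean, open for the keratin gate and filled for its keratin-led cells. Cxcl14 is lower in MOF cKO at both stages, and Cxcl1 in the E17.5 control is at 967 in the gate and 90.3 in keratin-led cells.

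In macrophages, the levels of Ccl2 and Ccl7 were lower in both E16.5 MOF cKO libraries than in both controls, and at E15.5 the group means differed by at most 1.4-fold in the chemokines that were counted. At E15.5, 2 chemokines lay above both controls and 4 below (Cxcl1, Cxcl2, Cxcl14 and Ccl2), against 22.4% and 22.5% of all genes. With TMM scaling 1 was below, Cxcl1, and with cells in 1 gate only or mitochondrial UMIs under 5% it was 2. At E16.5 the counts were 3 and 2, against 23.1% for each direction.

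Ccl2 stood at 567 and 1300.0 CPM in the E16.5 controls and 411 and 418 in MOF cKO, and Ccl7 at 597 and 746 against 286 and 248. The MOF cKO libraries were alike and the controls were not, and the groups did not overlap. The means were 934 ± 518 and 414 ± 4.5 for Ccl2 and 671 ± 105 and 267 ± 27.2 for Ccl7 (SD, n = 2 each). In macrophages that met no other gate Ccl2 stood at 736 and 1404 against 447 and 584, and Ccl7 at 781 and 805 against 346 and 350.3.

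Cxcl2, a Cxcr2 ligand, stood at 809 and 2743 in the E16.5 controls and 889 and 724 in MOF cKO. Control replicate 2 was far above the other libraries, and the groups overlapped. In macrophages that met no other gate they did not, with Cxcl2 at 1123 and 2978 against 1038 and 1006 and Cxcl10 at 46 and 39.5 against 22.4 and 3.4, the latter from 4 to 20 UMIs a library. Cxcl5, Cxcl12 and Ccl20 were above both controls, Cxcl12 at 6.83 and 8.52 against 32.5 and 54.3. Cxcl5 and Ccl20 rested on few UMIs. In MOF cKO replicate 2, 70 of 119 macrophages met no other gate, and the fibroblast list (4 of 4 genes above 0 per library) summed to 716 and 1657 CPM in the MOF cKO libraries against 301 and 486 in control. In macrophages of no other gate Cxcl12 stood at 3.28 and 2.32 against 11.2 and 9.35, from 2 and 21 UMIs.

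The macrophage list summed to 5299 to 5824 CPM in the 4 E16.5 libraries, whereas the monocyte list (Ly6c2, Plac8 and Ccr2, 2 to 3 of 3 above 0 per library) summed to 38.7 and 143 in control and 1450.4 and 1021 in MOF cKO. The neutrophil list summed to 11.4 and 0 against 2213 and 101 (0 to 6 of 7 genes above 0 per library) and the epithelial list to 157 and 38.4 against 1327 and 101. The part of these other cells in the lower Ccl2 and Ccl7 was not tested. The controls held 33 and 45 macrophages.

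At E15.5, Cxcl2 stood at 1876 and 1673 in control and 1616 and 1346 in MOF cKO, Ccl2 at 1031 and 971 against 956 and 791, and Ccl7 at 287 and 282 against 342 and 313. Cxcl2 and Ccl2 lay below both controls and Ccl7 above, and in each the gap between the groups was smaller than the gap between the 2 MOF cKO libraries. No UMI of Ccl20 was counted in the 313 control and 507 MOF cKO macrophages.

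**Figure D4:**
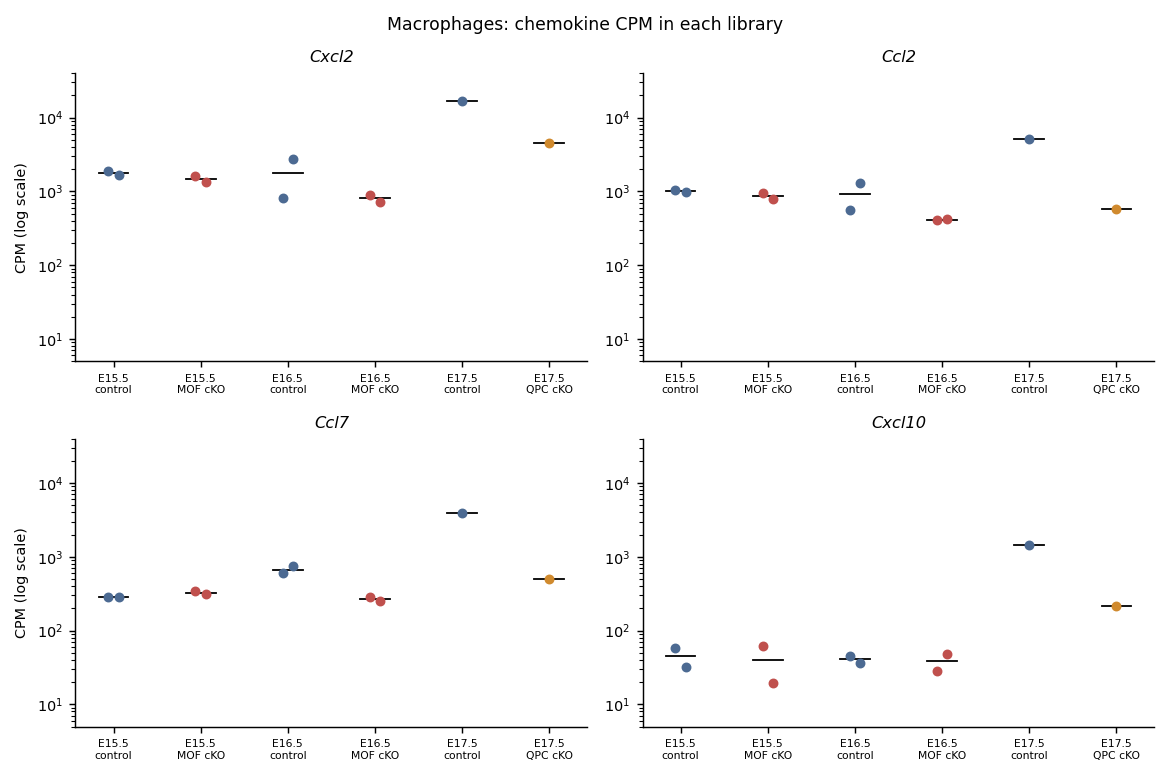
CPM of Cxcl2, Ccl2, Ccl7 and Cxcl10 in macrophages on a log axis, 1 point per library with a bar at the group mean. At E17.5 the control lies above QPC cKO in each panel, with Cxcl2 at 16588 and 4571, and Ccl7 at E16.5 is lower in MOF cKO (286 and 248) than in control (597 and 746).

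At E17.5, with 1 library per group and no replicate check, Cxcl1, Cxcl2, Cxcl10, Ccl2 and Ccl7 were lower in QPC cKO than in control in fibroblasts, macrophages and keratin-led epithelial cells. More than 2-fold lower were 6 of 8 chemokines with at least 100 UMIs in fibroblasts (1.48% of all genes there), 6 of 6 in macrophages (4.62%), 5 of 8 in keratin-led epithelial cells (3.6%) and 2 of 3 in mural cells (3.18%). Ccl20 in keratin-led cells was the 1 chemokine more than 2-fold higher in QPC cKO (0.958% of genes). Nearly all its UMIs lay in QPC cKO, so it met the limit of 100 UMIs there, and nothing is read from its direction. Since the chemokines were chosen with these levels known, nothing is read from the counts either. These ratios compare 2 libraries, and intervals are exact 95% Poisson intervals that cover counting error only.

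In fibroblasts Cxcl1 stood at 1915 (interval 1901 to 1929) CPM in control and 338 (interval 334 to 343) in QPC cKO. Ccl2 stood at 1757 against 294, Cxcl2 at 1621 against 251 and Ccl7 at 353 against 29.9. Cxcl12 (239 against 166) and Cxcl14 (164 against 197) differed by less, 1.44-fold lower and 1.2-fold higher in QPC cKO. The fibroblast class lacked the collagen-led cells of the keratin gate, 1363 in control and 110 in QPC cKO. Their fibroblast list summed to 6613 and 4868 CPM and their epithelial list to 91.9 and 115. In these cells Cxcl1 stood at 2061 against 361 and Ccl2 at 2073 against 405. The mast list summed to 129.6 in control and 38.7 in QPC cKO fibroblasts (4 of 4 genes above 0), the macrophage list to 13.9 and 5.61 (4 of 4 genes) and the neutrophil list to 11.7 and 2.2 (6 to 7 of 7 genes), and their part was not tested.

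Macrophages held 16588 (interval 16425 to 16752) CPM of Cxcl2 in control against 4571 (interval 4471 to 4672) in QPC cKO, and 5128 against 569 for Ccl2. Cxcl1 stood at 2354 against 269.8, and Cxcl10 at 1457 against 214. Of these macrophages, 58 of 107 in control and 67 of 79 in QPC cKO met no other gate. In them Cxcl2 stood at 17254 against 4436, Ccl2 at 5558 against 637 and Cxcl1 at 2516 against 207, each again lower in QPC cKO. The mast list (4 of 4 genes above 0 per library) summed to 2057 in control macrophages and 33.2 in QPC cKO, the fibroblast list (4 of 4 genes) to 855 and 192, and the dissociation-response list to 9061 and 11017. The part of these lists in the chemokine levels was not tested.

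In keratin-led epithelial cells Cxcl14 stood at 1111 in control and 979 in QPC cKO, a ratio of 0.881. Ccl20 stood at 0.222 (9 UMIs in 1706 cells) against 15.6 (407 UMIs in 1052 cells). 1.44% of QPC cKO cells held one at 5000 UMIs per cell against 0.329% of QPC cKO fibroblasts. Cxcl2 stood at 480.2 against 68.1 and Ccl2 at 136 against 7.07, while the macrophage list (4 of 4 genes above 0 per library) summed to 255 in control and 55.1 in QPC cKO. The mast list (4 of 4 genes) summed to 1839 and 71.9 and the dissociation-response list (10 of 10 genes) to 5712 and 3621, and the part of the 3 lists was not tested. In the whole keratin gate, 44.4% collagen-led in control, the ratios of Cxcl1 and Ccl2 were 17.51 and 24.1 in favour of the control.

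In endothelial and mural cells, which played no part in choosing the genes, differences were tested with edgeR's quasi-likelihood test and Benjamini-Hochberg adjustment over all genes. At E15.5, 2 of 12 chemokine and receptor genes tested in endothelial cells passed an adjusted p of 0.05, where 0.486% of all genes did (0.176% higher and 0.31% lower). Cxcl2 stood at 2.06 and 4.02 in control and 12.8 and 25 in MOF cKO, and it was called higher (log2 fold change 2.60, SE 0.45, adjusted p = 0.0222). Cxcl12, the Cxcr4 ligand, stood at 26.3 and 42.2 in control and 12.8 and 13.4 in MOF cKO, and it fell (log2 fold change -1.33, SE 0.25, adjusted p = 0.0370). Cxcl2 had 4 and 8 UMIs in control against 57 and 58, so it entered the test through MOF cKO and nothing is read from the direction of its call. The groups did not overlap for either gene, and 13.9% of all genes lay above both controls and 27.1% below. In control 3 UMIs would be 1.55 and 1.51 CPM, and in MOF cKO 0.673 and 1.29. The macrophage list, in which Cxcl2 is high, summed to 43.8 and 17.1 in control and 64.6 and 87.6 in MOF cKO endothelial cells (3 to 4 of 4 genes above 0 per library), and its part was not tested. With mitochondrial UMIs kept under 5% no gene was called, DESeq2 called 1 higher and 0 lower, so the lower Cxcl12 was not called by it, and edgeR called 6 and 3 without control replicates 2 and 3 and 4 and 5 without MOF cKO replicates 5 and 6.

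Ccl2 in endothelial cells stood at 4.13 and 1.51 against 8.75 and 23.7 at E15.5 and missed the threshold (log2 fold change 2.46, SE 0.56, adjusted p = 0.0759 by edgeR). It had 8 and 3 UMIs in control and entered the test through MOF cKO, so nothing is read from its direction. At E16.5, with 8 and 50 control and 16 and 15 MOF cKO cells, no Cxcl10 UMI was counted in control, where 3 UMIs would be 39.1 and 3.98 CPM, and 31 UMIs were counted in each MOF cKO library, 102 and 103 CPM. Cxcl10 entered the test through MOF cKO alone, so nothing is read from its call, the 1 among 3 genes tested (adjusted p = 0.00896 by edgeR, 1.24% of all genes called and 0.836% higher), and no call was left with DESeq2 or with the replicate number as a block. Without any 1 library edgeR called 3 to 4 genes. After thinning, 4 of 16 and 1 of 14 MOF cKO cells held Cxcl10. Cxcl1 stood at 65.2 and 19.9 against 358 and 96.5 (log2 fold change 3.27, SE 0.69, adjusted p = 0.0504 by edgeR). Cxcl1 too rested on few UMIs in control, and nothing is read from its direction.

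Mural cells, the pericytes and smooth muscle cells of vessels, held no called chemokine or receptor at either stage. By edgeR 0 of 9 tested genes passed at E15.5, as did 0 of 5 at E16.5 (0.056% and 0.0477% of all genes called), with 1 and 2 at an unadjusted p under 0.05, as were 610 of 8921 and 133 of 2098 genes of all kinds. DESeq2 called 0 at both (0 and 2 of all genes). With 1 library left out edgeR called up to 3, without MOF cKO replicate 5 at E15.5 and without control replicate 1 at E16.5. At E16.5 Ccl2 stood at 67.6 and 369.6 in control and 1222 and 695 in MOF cKO (log2 fold change 2.20, SE 0.63, adjusted p = 0.442 by edgeR). These rest on 9 and 18 control and 9 and 24 MOF cKO cells. The monocyte list summed to 96.5 and 51.7 against 1142 and 414 there (1 to 2 of 3 genes above 0 per library). Cxcl1 stood at 1332 and 606 against 1760.3 and 1401 (adjusted p = 0.749 by edgeR).

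Within the keratin gate, Cxcl14, Cxcl1, Cxcl10, Cxcl2 and Cxcl12 were lower in suprabasal cells than in basal cells of the same library. Suprabasal cells held at least 10 UMIs of Krt1 and Krt10, made when keratinocytes leave the basal layer. This split played no part in the choice of genes. The gate also held collagen-led cells, and in keratin-led cells only Cxcl14, Cxcl1 and Cxcl10 stayed called. The difference of log2(CPM + 1) was tested with an exact two-sided sign-flip permutation over the 9 libraries with at least 10 cells of both kinds, whose smallest p is 0.00391, and adjusted over 14066 genes. Of the 9 chemokines, 5 passed and all 5 were lower in suprabasal cells, where 24.2% of all genes were called lower and 12.3% higher. The median difference was -1.39 over the 9 and -0.18 over all genes.

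Cxcl14 ranged from 433 through a median of 938 to 1626 CPM in basal cells and from 42 through 232 to 562 in suprabasal cells. It was lower in 9 of 9 libraries, with a mean log2 difference of -2.13 ± 0.96 (SD, n = 9), exact permutation adjusted p = 0.0191. Cxcl1 was lower in 9 of 9 (-2.38 ± 1.06 (SD, n = 9), exact permutation adjusted p = 0.0191), with medians of 106 in basal and 20.6 in suprabasal cells. Cxcl10 was lower in 9 of 9 as well (-2.57 ± 1.40 (SD, n = 9), exact permutation adjusted p = 0.0191), with medians of 51.7 and 12.2. All 3 stayed called in keratin-led cells, where 36.2% of all genes were called in either direction and 23.3% lower. Cxcl5 was not tested in keratin-led cells. The count of 3 there is not read as particular to the chemokines.

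Cxcl2 and Cxcl12 were lower in 8 of 9 libraries and passed in the gate (exact permutation adjusted p = 0.0360 for both), but not in keratin-led cells. The Cxcl2 difference was about as large there, -2.22 against -2.01 in the gate and lower in 8 of 9 libraries (exact permutation adjusted p = 0.0593). Cxcl12 in keratin-led cells differed by -0.08 on the log2 scale (exact permutation adjusted p = 0.715) against -1.13 in the gate, which also holds the collagen-led cells. Ccl2, Ccl7, Ccl20 and Cxcl5 did not pass, with exact permutation adjusted p of 0.122, 0.0659, 0.194 and 0.0514.

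Within fibroblasts, cells were split by markers of the upper dermis (at least 3 UMIs of Crabp1, Lef1 and Dkk2, and more than of the other set) and of fascia (Mfap5, Pi16 and Dpp4, likewise), in 10 libraries with a smallest exact p of 0.00195. Cxcl14, Ccl2 and Cxcl2 were lower in fascia-marker cells, 3 of 8 chemokines tested. Of 14250 genes, 40.4% were called, 23.7% lower and 16.7% higher. The 3 of 8 are no larger a share than that of all genes called in either direction. The count is therefore not read as particular to the chemokines. Ccl20, with 47 UMIs in all, was not tested. The median difference was -0.72 over the 8 and -0.09 over all genes.

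Cxcl14 ranged from 230.4 through 358 to 632 in upper-marker and from 69.8 through 98.8 to 196 in fascia-marker cells. It was lower in 10 of 10 libraries and the ranges did not overlap (-1.82 ± 0.83 (SD, n = 10), exact permutation adjusted p = 0.00951). Ccl2 was lower in 9 of 10 (-2.03 ± 1.86 (SD, n = 10), exact permutation adjusted p = 0.0146) and Cxcl2 in 8 of 10 (-2.20 ± 1.68 (SD, n = 10), exact permutation adjusted p = 0.0284), and both E17.5 libraries were the exceptions for Cxcl2.

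In E16.5 MOF cKO each of the chemokines was higher in upper-marker than in fascia-marker fibroblasts of both libraries, Ccl20 from few UMIs. Ccl7 stood at 145 and 68.9 CPM in upper-marker cells against 23.3 and 25 in fascia-marker cells. Replicate 1 had 19 fascia-marker cells, with 2 UMIs of Ccl2 and 5 of Cxcl10. Ccl2 stood at 653 and 302 CPM in upper-marker cells and at 5.82 and 32.3 in fascia-marker cells of these 2 libraries, and Cxcl10 at 343 and 89.8 against 14.5 and 39.2. In the 5 controls, Cxcl10 was instead higher in fascia-marker cells in 5 of 5, by a log2 difference of 1.61 ± 0.51 (SD, n = 5), and so was Ccl7 by 1.14 ± 0.77 (SD, n = 5). Over all 10 libraries neither passed, with exact permutation adjusted p of 0.778 for Cxcl10 and 0.694 for Ccl7. Without the 2 E16.5 MOF cKO libraries Cxcl2 no longer passed, at a difference of -1.88 against -2.20 over 10 (exact permutation adjusted p = 0.0800), and Cxcl1 did, at a difference of 0.57. Cxcl1, Cxcl12 and Cxcl5 did not pass over the 10 (exact permutation adjusted p of 0.838, 0.969 and 0.0730).

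**Figure D5:**
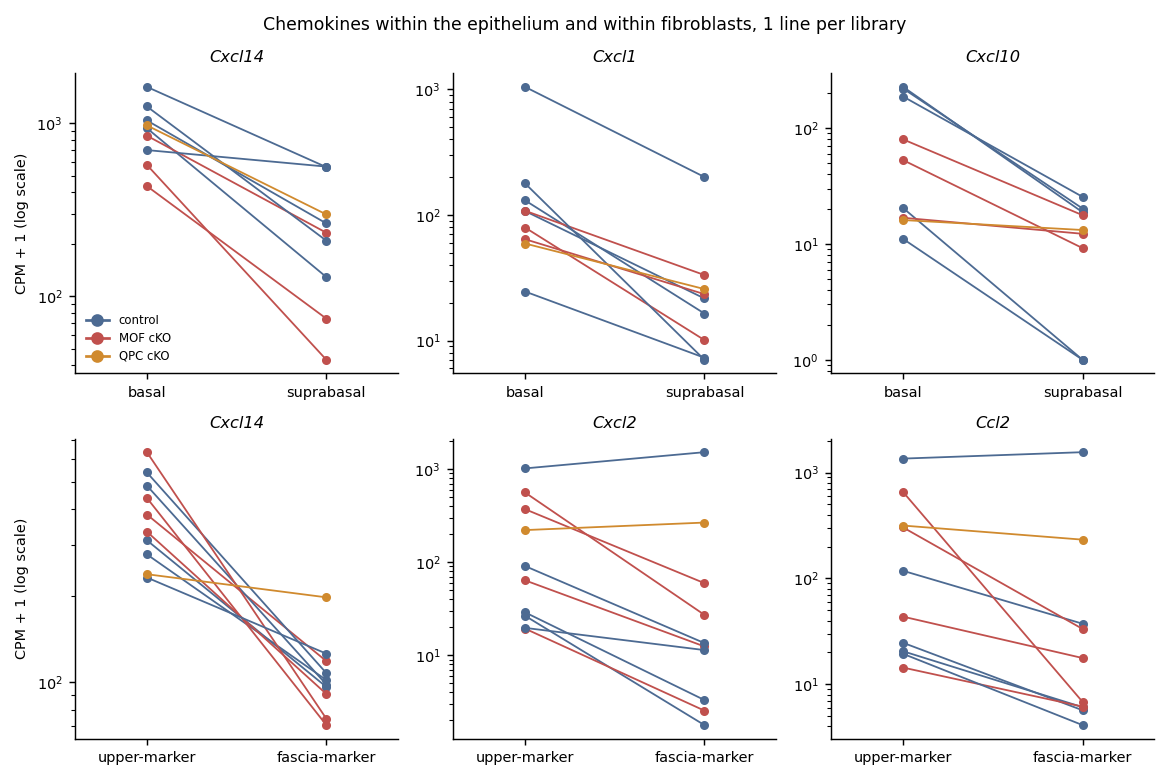
CPM plus 1 on log axes, 1 line per library, joining basal to suprabasal epithelial cells (top row, 9 libraries, Cxcl14, Cxcl1 and Cxcl10) and upper-marker to fascia-marker fibroblasts (bottom row, 10 libraries, Cxcl14, Cxcl2 and Ccl2). Cxcl14 runs down in every line of both rows, and Cxcl2 runs up in the 2 E17.5 libraries of the bottom row.

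The UMIs of Cxcl1, Cxcl2 and Ccl2 were spread less evenly over fibroblasts than those of Cxcl14. After thinning, the 10% of fibroblasts with the most Cxcl1 held 54.9 to 94.6% of its UMIs over the libraries, and the figures were 66.4 to 100% for Cxcl2 and 54.8 to 100% for Ccl2. They were 30.6 to 58.1% for Cxcl12 and 28.8 to 45.2% for Cxcl14. In macrophages the top 10% held 35.4 to 60.8% of Ccl2, 33.7 to 70.2% of Ccl7 and 31 to 60.3% of Cxcl2. A gene with few UMIs is held by few cells for that reason alone, so the shares describe each gene at its own level.

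Fibroblasts with a UMI of Ccl2 held Ccl7 more often than those without, and those with Cxcl1 held Cxcl2 and Ccl2 more often. Macrophages with a Ccl2 UMI held Ccl7 in 50 to 100% of cells across the 10 libraries and those without it in 6.45 to 23.5%, and the first share was the higher in 10 of 10. In fibroblasts the shares were 4.86 to 25.7% and 0.549 to 12.1%, higher in 10 of 10. Fibroblasts with Cxcl1 held Cxcl2 in 6.37 to 62% of cells and those without in 1.76 to 30.3%, higher in 10 of 10. For Cxcl1 and Ccl2, which lie on different chromosomes, the shares with and without Cxcl1 were 8.99 to 69.2% and 1.73 to 44.3% in fibroblasts, higher in 10 of 10. In macrophages of E16.5 MOF cKO replicate 1 the order for Cxcl2 was the other way, 53.3 and 65.1% of cells with and without Cxcl1. The fibroblast gate did not exclude cells that also met the macrophage gate. Between 4 and 49 cells per library met more than 1 gate, 26 and 19 in the E15.5 controls. Their part in the fibroblast shares was not tested. Cells of 1 library share its source and depth, and these shares carry no test.

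Receptors and the other ligands, 23 and 29 genes of a list, show what else of the system was measured. Of these, 23 receptors and 28 ligands were listed in all 10 libraries. In macrophages Cx3cr1, the fractalkine receptor, stood at 401 and 407 in control and 256 and 374 in MOF cKO at E15.5. There Ccr1 stood at 132 and 116 against 124 and 162 and Ccr2, the receptor of Ccl2 and Ccl7, at 91.8 and 75.1 against 85.2 and 97.2. By edgeR 3 of 20 list genes tested in E15.5 macrophages passed (1.27% of all genes called, 0.966% higher and 0.307% lower), and without control replicate 2 or 3 the count was 2, without MOF cKO replicate 5 it was 4 and without replicate 6 it was 7. Pf4, a platelet and macrophage chemokine, fell from 5392 and 4461 to 3075 and 2807 (log2 fold change -0.75, SE 0.12, adjusted p = 0.0281 by edgeR). Cxcl16, the membrane-bound ligand of Cxcr6, stood at 9.88 and 10.4 against 44.4 and 44 and rose (log2 fold change 2.12, SE 0.18, adjusted p = 0.00170 by edgeR), while Ccl5 was called higher (0.732 and 0.995 against 13.1 and 37.3, log2 fold change 4.83, SE 0.73, adjusted p = 0.0196 by edgeR). Ccl5 rested on 2 and 2 UMIs in control, entered the test through MOF cKO, and nothing is read from the direction of its call. The monocyte list in these macrophages (2 to 3 of 3 genes above 0 per library) summed to 176 and 118 in control and 379 and 281 in MOF cKO, and its part in these calls was not tested.

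At E16.5 no list gene passed in macrophages by edgeR (0 of 16 tested, 0% of all genes called), while 10 had an unadjusted p under 0.05, as did 1055 of 7201 genes of all kinds, and DESeq2 called 7 list genes and 151 of all 7201. Pf4 stood at 6956 and 8196 against 2076 and 1653 (edgeR adjusted p = 0.122), Cx3cr1 at 387 and 413 against 30.7 and 111 (adjusted p = 0.192 by edgeR) and Ccr2 at 27.3 and 44.8 against 106 and 96.1 (adjusted p = 0.177 by edgeR). Ccr2 is 1 of the 3 genes of the monocyte list.

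In E16.5 fibroblasts 6 of 17 list genes were called by edgeR and were higher in MOF cKO, where 4.64% of all genes were called, 2.43% higher and 2.21% lower. The eosinophil chemokine Ccl11 stood at 10.3 and 6.77 in control and 51.1 and 26.8 in MOF cKO (log2 fold change 2.35, SE 0.39, adjusted p = 0.0390 by edgeR). Ccl12, a Ccr2 ligand, stood at 0.695 and 1.79 against 11.7 and 13.1 (log2 fold change 3.26, SE 0.41, adjusted p = 0.0293 by edgeR). Ccl9 stood at 0.417 and 0.398 against 5.33 and 8.29 (log2 fold change 4.14, SE 0.40, adjusted p = 0.0243 by edgeR), and Ccl4, Cxcl16 and Ppbp were the other 3, with Ccl4 at 0.556 and 1.39 against 6.96 and 6.68 CPM, Cxcl16 at 0.556 and 0.332 against 3.11 and 2.9 and Ppbp at 0.278 and 0.199 against 1.92 and 2.09. Control counts were few for Ppbp (2 and 3 UMIs), Ccl9 (3 and 6), Cxcl16 (4 and 5), Ccl4 (4 and 21) and Ccl12 (5 and 27). A gene this low in control entered the test through MOF cKO, where it is high, so the direction of these calls is partly fixed by the filter on low counts. Ccl11, with 74 and 102 UMIs in control, is not of this kind. Without control replicate 1 or 2 the count was 4 or 0, and without MOF cKO replicate 1 or 2 it was 2 or 1. The macrophage and monocyte lists moved the same way in these fibroblasts, as given above, and their part was not tested. At the earlier stage edgeR called 0 of 33 list genes in fibroblasts and 0 of 23 in epithelial cells (0% of all genes in both), with 6 and 5 at an unadjusted p under 0.05, as were 2538 of 16268 and 1360 of 14625 genes of all kinds. DESeq2 called none of the list in both classes (0 and 0), and 494 and 140 of all genes. In epithelial cells the edgeR count was 9 once MOF cKO replicate 6 was left out, when 7015 of all 15415 genes tested were called.

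In E16.5 epithelial cells 1 of 9 list genes passed by edgeR, where 5.82% of all genes did (4.68% higher and 1.14% lower). It was Cxcl16, at 6.49 and 6.2 in control and 121 and 70 in MOF cKO (log2 fold change 4.50, SE 0.43, adjusted p = 0.00784 by edgeR). In the same gate the neutrophil list was higher in MOF cKO, as given above, the monocyte list (2 to 3 of 3 genes above 0 per library) summed to 0.778 and 0.924 in control and 12.1 and 7.5 in MOF cKO, and the epithelial list to 2419.8 and 2647 against 9961 and 6532. Control replicate 1 was 28.2% collagen-led, and the part of these in the call was not tested. Ackr3, the scavenger of Cxcl12, stood at 17.2 and 17.6 against 7.13 and 18.8 in E15.5 epithelial cells and at 11 and 10.3 against 10.4 and 13 in fibroblasts, and it was not called. Ccl11 in mural cells (119.5 and 129.7 against 136 and 94.1 at E15.5) and the lymphatic chemokine Ccl21a in endothelial cells (459 and 446 against 342 and 133) were the highest of the other ligands there. Ccl21a, Ccl19 and Ccl27a are listed in several gene entries, so their counts are uncertain.

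Over 30 profiles (10 libraries by epithelial, fibroblast and macrophage cells), each chemokine was set beside 15726 genes by Pearson correlation of log2(CPM + 1). Profiles of 1 library share its depth and chemistry, and the differences between the 3 classes carry much of each value, so the values are descriptions. Cxcl1 was most like Il6 (0.85), Adm (0.81) and March3 (0.81), Cxcl2 like Pim1 (0.94), Arhgef2 (0.93) and Plekho2 (0.93) and Cxcl5 like Il31ra (0.93), Serping1 (0.91) and Il6 (0.87). Cxcl10 was most like Nfkbia (0.87), Tnfaip3 (0.79) and Nfkb2 (0.74), which encode regulators or subunits of NF-κB signalling. Cxcl12 was most like Col6a2 (0.98), Bgn (0.98) and Gpr153 (0.98), the first of which is a collagen gene, and Cxcl14 like Ctf1 (0.95), Smoc2 (0.94) and Ccnd2 (0.94).

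Ccl2 was most like Adam9 (0.91), Fcgrt (0.90) and Ctsf (0.90), Ccl7 like Batf (0.94), Casp4 (0.94) and Ppp1r18 (0.93) and Ccl20 like Skint7 (0.91), Mal2 (0.91) and Trpv3 (0.90). Among the chemokines themselves Ccl7 and Cxcl2 were at 0.96, Ccl2 and Cxcl2 at 0.95 and Ccl2 and Ccl7 at 0.95. The neighbours Cxcl1 and Cxcl2 were at 0.42, and Ccl7 and Cxcl14 at -0.77.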

How the data were processed

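Back skin of mouse embryos was profiled by droplet single-cell RNA sequencing in 10 libraries. The authors aligned the reads to mm10 and deposited raw UMI counts per gene and cell; their submission notes name Cell Ranger 6.1.2 for E15.5 and versions 1.3.1 and 6.1.2 for the later stages. Cells with more than 1000 and fewer than 6000 genes and under 10% mitochondrial UMIs were kept, and no doublet caller was run. Classes were set by UMIs of marker genes, and cells could enter more than 1 of the epithelial, fibroblast and macrophage classes except where the gates exclude each other. UMIs were summed per library and class. Both MOF stages were tested with edgeR 4.0.16 (TMM, quasi-likelihood, Benjamini-Hochberg, threshold 0.05) in R 4.3.3, with DESeq2 1.42.0 as an alternative, and the splits within a class with scipy 1.17.1 and numpy 2.4.6 by exact sign flips. The design named an adjustment over the 9 chemokines for the splits, and p-values were instead adjusted over all genes tested. Cells were thinned to 5000 UMIs with 1 fixed seed for shares, and shallower cells were left out. The SE given with an edgeR log2 fold change was its absolute value divided by the square root of the quasi-likelihood F statistic. The tests were checked on simulated data. The chemokines, gates and gene lists were chosen with earlier results of these data known. The genes named are the 9, each receptor or other ligand called or among the 3 of highest level in a class (summarised where not called), and the 3 genes most like each chemokine. Cxcl11 was not analysed here. Of 50-base stretches of Cxcl2 transcripts 5.84% also occur in Cxcl3, and 0.693% of those of Cxcl5 in other genes, so a few reads of both are uncertain. Depth ranged from 13609345 to 203392303 UMIs per library, and intervals cover counting error only.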

Additional observations from a re-analysis of the deposited data

Results flagged for a closer look

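In 3 cases 1 library lay far from the others within a split, by Dixon's criterion, which chance meets in about 1 of 20 groups. Ccl2 was lower in suprabasal than in basal cells by a log2 difference of -6.30 in E16.5 control replicate 1, where 0 UMIs were counted in 27 suprabasal cells and the other 8 libraries lay between -2.70 and 0.88. Between fascia-marker and upper-marker fibroblasts, E16.5 MOF cKO replicate 1 had -4.47 for Cxcl10 (the other libraries -1.22 to 2.37) and -6.58 for Ccl2 (the others -3.18 to 0.20), from 5 and 2 UMIs in 19 fascia-marker cells.

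In 4 flagged cases every MOF cKO library lay on one side of the controls at E15.5 and on the other at E16.5. These are not all such cases. In keratin-led epithelial cells Cxcl1, Cxcl2 and Cxcl10 lay below both controls at E15.5 and above both at E16.5. The difference between the stages was not tested, and stage and chemistry cannot be told apart. In macrophages the log2 ratio of MOF cKO over control was 0.20 and -1.33 for Ccl7, and 0.52 and -0.92 for Ccl4. In endothelial cells it was -0.58 and 2.39 for Cxcl1, and in fibroblasts -0.08 and 0.51 for Ccl27a.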

How the results depend on the processing

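Of the recomputed counts of chemokines or list genes outside the runs that left out 1 library, 57 stayed within 1.5 times and 31 moved. The count of chemokines that differed between suprabasal and basal cells was 3 in place of 5 in keratin-led cells, and between the fibroblast kinds the same 3 passed in 3 alternatives, while without both E16.5 MOF cKO libraries Cxcl1 passed and Cxcl2 did not. The number above both controls in epithelial cells was 1 in place of 3 at E15.5 with lowered gates or keratin-led cells. At E16.5 it was 2 in place of 1 with lowered gates or cells in 1 gate only, and 4 with TMM scaling or keratin-led cells. In E15.5 macrophages it was 1 in place of 2 when C1qa, C1qb and Csf1r were all required, or with cells in 1 gate only. The number below both controls in macrophages was 1 in place of 4 with TMM scaling and 2 with cells in 1 gate only or mitochondrial UMIs under 5% at E15.5, and 5 in place of 2 with cells in 1 gate only at E16.5. In E15.5 epithelial cells it was 2 in place of 4 with TMM scaling.

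For list genes at E16.5, epithelial cells had 1 by edgeR, 2 by DESeq2 and 4 with no filter on low counts. Fibroblasts had 6, and 10 with library size alone, 11 by DESeq2 and 15 with no filter. Macrophages had 0, and 7 by DESeq2, 9 with no filter and 5 with cells in 1 gate only. In E15.5 macrophages the 3 became 5 with library size alone, 6 by DESeq2, 9 with no filter and 6 with cells in 1 gate only. In endothelial cells the 2 at E15.5 became 1 by DESeq2, 5 with no filter and 0 with mitochondrial UMIs under 5%. The 1 at E16.5 became 0 by DESeq2, 6 with no filter and 2 with mitochondrial UMIs under 5%. Mural cells went from 0 to 1 at E15.5 with no filter or mitochondrial UMIs under 5%, and from 0 to 2 at E16.5 with no filter. The cause was not tested, apart from the larger number of genes tested without a filter. The share of all genes called can change between such runs as well. Where that share is not printed beside a count of list genes, nothing about the chemokines is read from the count. This holds here, for endothelial and mural cells above, and for the runs that left out 1 library.

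With 1 library left out, where a lone sample is assumed to vary like the other group, the chemokines above both controls numbered 3 to 5 (E15.5) and 1 to 7 (E16.5) in epithelial cells, 3 to 8 and 8 to 9 in fibroblasts, and 2 to 3 and 3 to 6 in macrophages, a comparison of 1 library with 2 for which the share over all genes was not computed. The extremes came without MOF cKO replicate 6 at E15.5 (5 in epithelial cells and 8 in fibroblasts), and at E16.5 without control replicate 1 (7 in epithelial cells) or MOF cKO replicate 1 (6 in macrophages). List calls ranged from 0 to 9 and 1 to 1 in epithelial cells, 0 to 0 and 0 to 4 in fibroblasts, 2 to 7 and 0 to 0 in macrophages, 3 to 6 and 3 to 4 in endothelial cells and 0 to 3 at both stages in mural cells. Without E15.5 MOF cKO replicate 6 there were 9 in epithelial cells (7015 of all 15415 genes) and 7 in macrophages (206 of 10757), and in E16.5 fibroblasts there were 4 without control replicate 1, 0 without control replicate 2, and 2 and 1 without MOF cKO replicates 1 and 2.

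Directions reversed in 3 values, none of which was called. The Cxcl1 difference between fibroblast kinds was -0.11 in place of 0.11 with stricter marker gates, the Cxcl1 ratio in E15.5 macrophages was 0.23 in place of -0.18 with mitochondrial UMIs under 5%, and the Cxcl12 ratio there was -0.17 in place of 0.44 with cells in 1 gate only. Same-numbered E16.5 samples did not deviate together (correlations of -0.087 to 0.068), so the numbers were not taken as pairs. With the replicate number as a block the calls were 1 in epithelial cells, 6 in fibroblasts, 0 in macrophages, 0 in endothelial cells in place of 1, and 0 in mural cells. Endothelial and mural cells are in no other gate, so the alternative with cells in 1 gate only was not run for them. Depth limits the E16.5 values, with sums down to 76663 UMIs in endothelial and 103611 in mural cells of a library.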
